A study of Mus musculus with 16 samples.

Results

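Markers of alveolar fibroblasts and lipofibroblasts, 8 genes in all, were followed in tdTomato-positive cells sorted from mouse lung: *Tcf21*, *Npnt*, *Inmt*, *Limch1*, *Plin2*, *Pparg*, *Fgf10* and *G0s2*. They were taken by name, 8 of the 49452 genes listed, and each had a single entry in the tables. RNA was sequenced from 16 mice in 4 groups of 4, crossing a Cre line with an instillation of saline or bleomycin, a drug whose airway instillation injures the lung and leads to scarring. The comparisons ask how far each marker was present in the cells that each line labels, and how it differed between injured and uninjured lung.

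All mice carried a Cre-dependent tdTomato reporter, so the labelled cells glow red after tamoxifen, and all were taken at 11 weeks of age, 14 days after the instillation. The *Acta2*-tdT mice (strain Acta2-CreERT2; tdTomatoflox) express tamoxifen-inducible Cre under the promoter of *Acta2*, which encodes smooth muscle actin. They received food with 400 mg/kg tamoxifen from 5 days after saline (mice 1 to 4) or bleomycin (mice 5 to 8), so that cells were labelled while the injury was under way. The *Pdgfra*-tdT mice (strain Pdgfra-CreERT2; tdTomatoflox) use the promoter of *Pdgfra*, a growth factor receptor of fibroblasts, and received 5 injections of 3 mg tamoxifen at 6 weeks of age, before saline (mice 1 to 4) or bleomycin (mice 5 to 8). Line and labelling schedule therefore cannot be told apart. Nothing in the labels links a mouse of one line to a mouse of the other.

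Alveolar fibroblasts lie in the walls of the air sacs, and a part of them, the lipofibroblasts, store neutral lipid in droplets next to the epithelial cells that make surfactant. The nuclear receptor encoded by *Pparg* is known to drive the lipid programme, *Plin2* coats the droplets, and *G0s2* holds back the lipase that empties them. *Tcf21* is a transcription factor of these cells, *Fgf10* a growth factor that they send to the epithelium, and *Npnt* a matrix ligand of integrins.

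Values are FPKM, fragments scaled by transcript length and by mapped fragments, which allow levels to be compared between genes. The depth of the libraries is unknown from these values. The summed FPKM of nuclear protein-coding genes was far from equal between groups: it was 35603 to 57788 in the *Acta2*-tdT saline mice, 231058 to 463127 with bleomycin, 29964 to 59840 in the *Pdgfra*-tdT saline mice and 28512 to 137952 with bleomycin. Protein-coding genes held 15.0% to 20%, 30.4% to 48.2%, 13.5% to 18.7% and 13.4% to 28.3% of all FPKM in these groups, so the total FPKM differed as well. Each value is therefore also given as scaled FPKM, multiplied so that the nuclear protein-coding sum was 49122 in every mouse. *Acta2* was higher in the *Acta2*-tdT than in the *Pdgfra*-tdT saline mice (log2 difference 4.82 ± 0.50 (SE), limma adjusted p = 0.00329), and *Pdgfra* was lower (log2 difference -1.43 ± 0.20, adjusted p = 0.00971), in the direction of the labels. With bleomycin, *Pdgfra* itself was higher by FPKM in the *Acta2*-tdT mice (7.87 ± 3.94 FPKM (SD, n = 4)) than in the *Pdgfra*-tdT mice (1.70 ± 0.66 FPKM), while its scaled difference was -0.33 (adjusted p = 0.365). *Pdgfra*-tdT saline mouse 3 and bleomycin mouse 5 stood apart, with summed endothelial markers of 598 and 1386 FPKM against 6.36 to 157 FPKM in the other *Pdgfra*-tdT mice. Their adventitial fibroblast markers stood apart too, at 355 and 1090 FPKM against 7.86 to 204 FPKM. They also had the largest protein-coding sums of their groups (59840 and 137952). In bulk RNA, fewer cells of a type and less RNA per cell cannot be told apart.

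Fewer marker values reached 1 FPKM in 3 of the 4 groups than in the *Acta2*-tdT bleomycin mice. This cutoff is unscaled and so moves with the unequal protein-coding sums. Of 32 gene and mouse values in each group, 17 reached 1 FPKM in the *Acta2*-tdT saline mice, 25 in the *Acta2*-tdT bleomycin mice, 8 in the *Pdgfra*-tdT saline mice and 10 in the *Pdgfra*-tdT bleomycin mice. Of the 8 genes, 6 reached 1 FPKM in all 4 *Acta2*-tdT bleomycin mice, 2 did so in the *Acta2*-tdT saline mice, none in the *Pdgfra*-tdT saline mice and 1, *Plin2*, in the *Pdgfra*-tdT bleomycin mice. As a gauge of the signal that genes silent in lung give here, 1962 odorant and vomeronasal receptor genes were read in the same way. Their values reached 1 FPKM in 17.7% of cases in the *Acta2*-tdT saline mice, 6.27% with bleomycin, 17.7% in the *Pdgfra*-tdT saline mice and 17.1% with bleomycin, against 53.1%, 78.1%, 25% and 31.25% for the 8 markers. Another measure was whether the lower bound that Cufflinks gives for a value lay above 0. By it, 87.5% of marker values were detected in both *Acta2*-tdT groups. In the *Pdgfra*-tdT line 78.1% were with saline and 59.4% with bleomycin. The receptor genes had 60.9%, 25.6%, 57.5% and 42.9%, in the order of groups above.

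**Figure D1:**
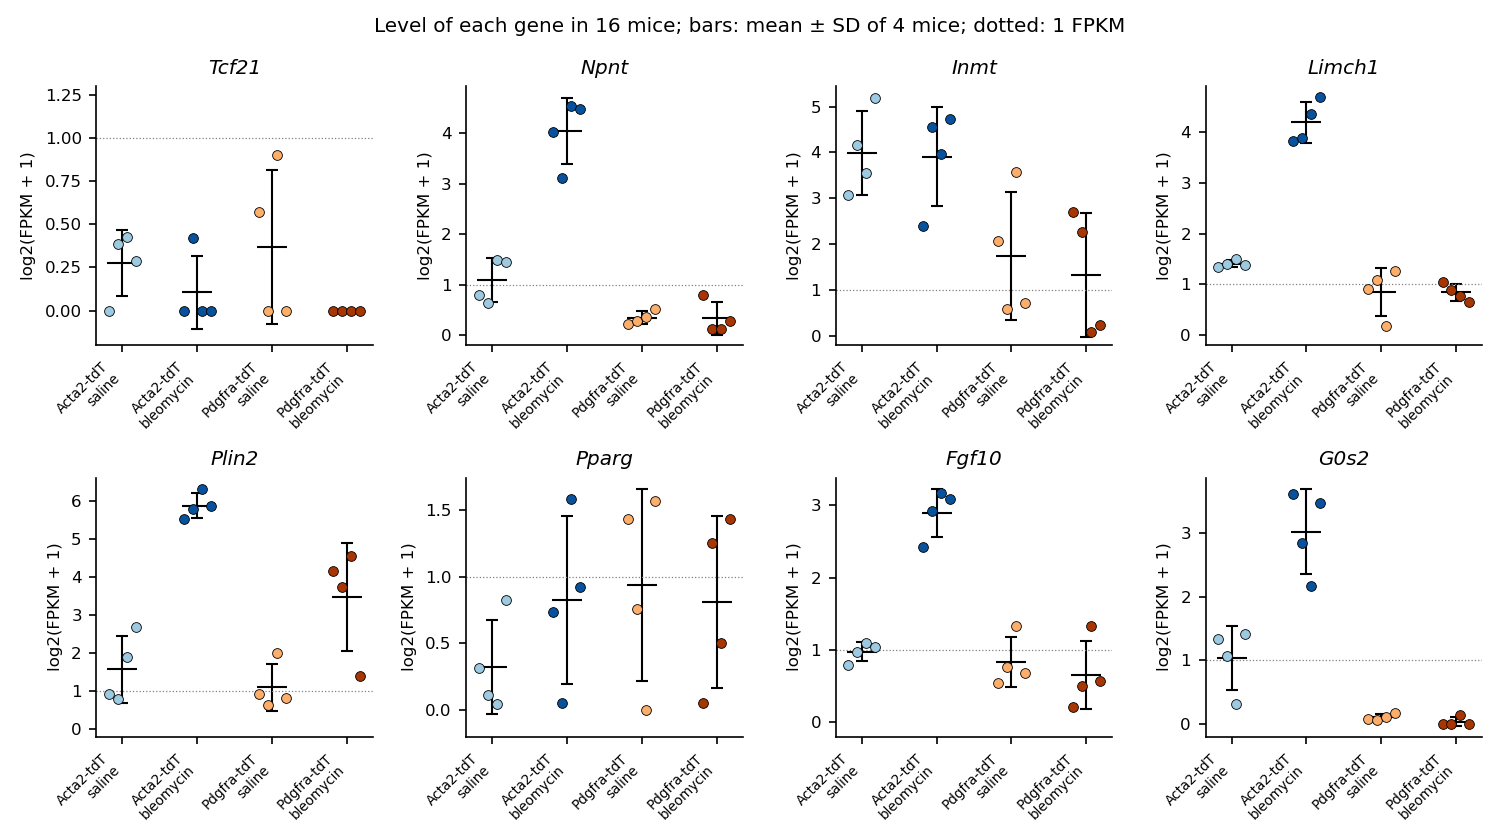
Level of each of the 8 genes in the 16 mice, as log2(FPKM + 1) on the y axis, by group on the x axis. Points are mice, bars are the mean ± SD of 4 mice and the dotted line is 1 FPKM. *Npnt*, *Limch1*, *Plin2*, *Fgf10* and *G0s2* lie higher in all 4 *Acta2*-tdT bleomycin mice than in any mouse of the other groups, while *Inmt* does not, and *Tcf21* stays under 1 FPKM in all 16 mice.

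*Tcf21* (ENSMUSG00000045680, chromosome 10, 22817279 to 22820128, minus strand, GRCm38), a basic helix-loop-helix transcription factor, did not reach 1 FPKM in any mouse. The *Acta2*-tdT saline mice had 0, 0.306, 0.345 and 0.218 FPKM and the *Acta2*-tdT bleomycin mice 0, 0.336, 0 and 0 FPKM. The *Pdgfra*-tdT saline mice had 0.484, 0, 0.868 and 0 FPKM, and all 4 *Pdgfra*-tdT bleomycin mice were listed at 0. Even in the mouse with the highest value, 20.5% of the receptor genes were at or above *Tcf21*. The groups overlapped in every pair, the gene passed no filter for the test across all genes, and no difference was detectable at these levels.

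*Inmt* (ENSMUSG00000003477, chromosome 6, 55170626 to 55175043, minus strand) encodes indolethylamine N-methyltransferase, an enzyme that methylates tryptamine and related amines. It was the most abundant of the 8 genes in the uninjured *Acta2*-tdT cells, with 7.36, 16.9, 10.7 and 35.5 FPKM in the saline mice. The bleomycin mice of that line had 4.23, 22.7, 14.6 and 25.7 FPKM. The range of the bleomycin mice overlapped that of the saline mice, and the log2 difference was -0.08 ± 0.61 (adjusted p = 0.906). The median log2 difference over all 12523 genes tested was 1.76. Scaled levels of *Inmt* were 9.81, 23.4, 10.8 and 30.2 in the saline mice and 0.654, 4.82, 1.64 and 2.72 in the bleomycin mice. On that scale *Inmt* fell by 2.50 on the log2 scale (SE 0.47, adjusted p = 0.00136; exact two-sided permutation p = 0.0286, the smallest that 4 against 4 mice allow), and no bleomycin mouse reached a saline mouse. The pericyte markers moved in the same direction, with 5 of 8 lower and 1 higher on the scaled values, none at 0 throughout a group, and a summed scaled level of 38.9 to 47.6 in the saline mice and 8.33 to 13.3 in the bleomycin mice. The neutrophil markers did so too, with 5 of 8 lower and scaled sums of 1023 to 1532 and 130 to 885, and 3 of 9 smooth muscle markers were lower and 2 higher (median -0.37), with scaled sums of 242 to 356 and 328 to 501. Of 5 tested endothelial markers 2 were lower and 0 higher, with scaled sums of 14.9 to 18.0 and 4.90 to 8.91. Over all genes 32.6% were lower and 23.9% higher on this scale. The part of these cells in the *Inmt* values was not tested.

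In the *Pdgfra*-tdT line *Inmt* was uneven from mouse to mouse. The saline mice had 3.22, 0.501, 10.9 and 0.654 FPKM, and the bleomycin mice 5.55, 3.81, 0.0582 and 0.186 FPKM. The highest *Pdgfra*-tdT value of each treatment belonged to saline mouse 3 and bleomycin mouse 5, the mice with the high endothelial and adventitial fibroblast sums. By scaled FPKM, however, the highest bleomycin value was that of mouse 6 (3.77, against 1.97 in mouse 5). Whether cells of either type contributed was not tested. Bleomycin against saline gave a log2 difference of -0.42 ± 0.86 (adjusted p = 0.861). Between the lines with saline, *Inmt* was 2.25 ± 0.76 higher in *Acta2*-tdT on the log2 scale, which missed the threshold (adjusted p = 0.226). Without *Pdgfra*-tdT saline mouse 3 the difference was 2.86 (adjusted p = 0.0151). The scaled difference was 2.2 ± 0.69 (adjusted p = 0.144), and on that scale all 4 *Acta2*-tdT mice were above the *Pdgfra*-tdT mice. With bleomycin *Inmt* was higher in *Acta2*-tdT by 2.59 ± 0.73 for FPKM (adjusted p = 0.00687), although *Pdgfra*-tdT mouse 5 was above *Acta2*-tdT mouse 5. The scaled difference of 0.56 ± 0.53 did not pass the test (adjusted p = 0.430).

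*Npnt* (ENSMUSG00000040998, chromosome 3, 132881745 to 132950291, minus strand) encodes nephronectin, a secreted matrix protein. It was at 0.727, 0.559, 1.80 and 1.72 FPKM in the *Acta2*-tdT saline mice and at 15.2, 7.70, 22.4 and 21.5 FPKM in the bleomycin mice, with no overlap. The rise was 2.96 ± 0.38 on the log2 scale (adjusted p = 5.23e-05). The scaled levels were 0.969, 0.772, 1.82 and 1.46 with saline and 2.35, 1.64, 2.52 and 2.29 with bleomycin, which overlap. That difference of 0.52 ± 0.19 was just past the threshold (adjusted p = 0.0438), and was not past it when any 1 of 5 mice was left out (adjusted p 0.0882 to 0.109).

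In the *Pdgfra*-tdT line *Npnt* was at 0.164, 0.219, 0.273 and 0.433 FPKM with saline and at 0.740, 0.0936, 0.0835 and 0.214 FPKM with bleomycin. In the saline mice 36.0% to 64.7% of receptor genes were at or above it. With saline, all *Acta2*-tdT mice were above the *Pdgfra*-tdT mice for *Npnt* on both scales. The log2 differences were 0.75 by FPKM and 0.71 scaled (exact permutation p = 0.0286 each), but the gene was below the filter there. Among bleomycin mice, the line difference was 3.72 ± 0.44 by FPKM (adjusted p = 7.62e-05) and 1.41 ± 0.22 by scaled FPKM (adjusted p = 0.00248). *Npnt* reached 1 FPKM only on the *Acta2*-tdT side of this comparison and entered the test through it. Lung epithelium also makes *Npnt*. The 12 epithelial markers summed to 46.6 to 790 FPKM in the *Acta2*-tdT saline mice, 318 to 1547 FPKM with bleomycin, 27.7 to 131 FPKM in the *Pdgfra*-tdT saline mice and 42.4 to 222 FPKM with bleomycin. Scaled, the sums were 64.3 to 799 with saline and 35.8 to 239 with bleomycin in *Acta2*-tdT, where 6 of 6 tested markers rose by FPKM and 0 of 6 were called by limma when scaled (median 0.14). In *Pdgfra*-tdT the scaled sums were 22.8 to 214 with saline and 44.8 to 383 with bleomycin, so the lines overlapped on that scale. The part of epithelial RNA in *Npnt* was not tested.

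*Limch1* (ENSMUSG00000037736, chromosome 5, 66745845 to 67057158, plus strand) encodes a protein with LIM and calponin homology domains that acts on non-muscle myosin. It varied little among the *Acta2*-tdT saline mice, at 1.53, 1.65, 1.82 and 1.62 FPKM. With bleomycin it was at 13.3, 13.9, 19.5 and 24.8 FPKM, all above the saline mice. The rise was 2.79 ± 0.29 on the log2 scale (adjusted p = 1.89e-05). Scaled, the levels were 2.04, 2.27, 1.84 and 1.37 with saline against 2.05, 2.96, 2.2 and 2.63 with bleomycin. The scaled groups overlapped and the difference of 0.27 ± 0.17 did not pass the test (adjusted p = 0.217).

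The *Pdgfra*-tdT mice had 0.877, 1.12, 0.133 and 1.39 FPKM of *Limch1* with saline and 1.05, 0.858, 0.703 and 0.576 FPKM with bleomycin. Saline mouse 3, the library with high endothelial and adventitial fibroblast markers, was the lowest of all 16. With bleomycin the *Acta2*-tdT mice were higher on both scales, by 3.36 ± 0.42 for FPKM (adjusted p = 1e-04) and by 0.98 ± 0.26 for scaled FPKM (adjusted p = 0.0159). *Limch1* reached 1 FPKM in all 4 *Acta2*-tdT bleomycin mice and in 1 *Pdgfra*-tdT bleomycin mouse, so it entered this test through the *Acta2*-tdT side. The scaled difference was not past the threshold without *Acta2*-tdT bleomycin mouse 8 (0.96, adjusted p = 0.0546) or when no filter was applied (adjusted p = 0.0553). With saline the difference of 0.55 ± 0.25 by FPKM missed the threshold (adjusted p = 0.386), although the 4 *Acta2*-tdT values all lay above the *Pdgfra*-tdT values. Scaled, the groups overlapped and the difference was 0.40 ± 0.34 (adjusted p = 0.654).

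*Fgf10* (ENSMUSG00000021732, chromosome 13, 118714699 to 118792115, plus strand) encodes a fibroblast growth factor that signals to epithelial cells through the receptor *Fgfr2*. It shares 123 exonic bases with an annotated antisense gene, Gm16263, and the library protocol does not mark strand, so reads there cannot be assigned. The *Acta2*-tdT mice had 0.732, 0.950, 1.14 and 1.05 FPKM with saline and 4.37, 6.53, 7.95 and 7.53 FPKM with bleomycin. The rise of 1.93 ± 0.25 on the log2 scale (adjusted p = 4.91e-05) stood close to the 1.76 of the median gene. Scaled, the saline mice were at 0.893 to 1.31 and the bleomycin mice at 0.674 to 1.39, and the difference of -0.11 ± 0.15 did not pass the test (adjusted p = 0.546).

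In the *Pdgfra*-tdT line *Fgf10* was at 0.454, 0.703, 1.52 and 0.606 FPKM with saline and at 0.152, 0.420, 1.5 and 0.487 FPKM with bleomycin. The 2 groups overlapped over nearly their whole range, and the exact permutation p was 0.514. The line difference with bleomycin was 2.25 ± 0.37 for FPKM (adjusted p = 0.000361) and 0.22 ± 0.29 for scaled FPKM (adjusted p = 0.585). *Fgf10* reached 1 FPKM in all 4 *Acta2*-tdT bleomycin mice and in 1 *Pdgfra*-tdT bleomycin mouse, so it entered this test through the *Acta2*-tdT side.

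*Plin2* (ENSMUSG00000028494, chromosome 4, 86656565 to 86670060, minus strand) encodes perilipin 2, a protein of the lipid droplet surface. By FPKM it had the largest difference of the 6 genes tested between bleomycin and saline in *Acta2*-tdT cells; by scaled FPKM that of *Inmt* was larger in size. The saline mice had 0.902, 0.723, 2.68 and 5.40 FPKM and the bleomycin mice 45.1, 54.2, 79.0 and 57.5 FPKM. Every bleomycin mouse was above every saline mouse, and the rise was 4.31 ± 0.46 on the log2 scale (adjusted p = 2.01e-05). The scaled levels were 1.20, 0.997, 2.72 and 4.59 with saline and 6.96, 11.5, 8.90 and 6.10 with bleomycin, a rise of 1.57 ± 0.35 (adjusted p = 0.00404; exact permutation p = 0.0286).

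*Plin2* was also the gene with the largest difference in the *Pdgfra*-tdT line. The saline mice had 0.879, 0.560, 2.97 and 0.770 FPKM and the bleomycin mice 16.8, 12.4, 22.5 and 1.63 FPKM. Bleomycin mice 5, 6 and 7 were above all saline mice, and mouse 8 lay within the saline range. The log2 difference of 2.37 ± 0.73 had an unadjusted p of 0.0109 and an adjusted p of 0.791, and without bleomycin mouse 8 it was 3.06 with an adjusted p of 0.0402. Scaled, the difference was 2.04 ± 0.68 (adjusted p = 0.776) and the groups did not overlap. With bleomycin, *Acta2*-tdT exceeded *Pdgfra*-tdT by 2.41 ± 0.81 for FPKM (adjusted p = 0.0168), but for scaled FPKM the difference was -0.11 ± 0.62 (adjusted p = 0.898). Without *Acta2*-tdT bleomycin mouse 7 the FPKM difference was 2.27 with an adjusted p of 0.0530.

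Macrophages are rich in perilipin 2, and the levels of their markers are given here beside *Plin2*. All 16 macrophage markers were found, and they summed to 201 to 715 FPKM in the *Acta2*-tdT saline mice, 3370 to 13060 FPKM with bleomycin, 52.9 to 124 FPKM in the *Pdgfra*-tdT saline mice and 460 to 3860 FPKM with bleomycin, with no marker at 0 throughout a group. By scaled FPKM the sums were 278 to 608, 520 to 1472, 43.5 to 198 and 792 to 2313. In *Acta2*-tdT cells 14 of 14 tested macrophage markers rose with bleomycin by FPKM and 7 by scaled FPKM, where the median differences were 3.77 and 1.07. Over all genes 70.4% and 23.9% rose, with medians of 1.76 and -0.02. In the *Pdgfra*-tdT line limma called 0 of 9 tested macrophage markers on either scale, with median differences of 3.38 and 3.01, and all 9 had an unadjusted p under 0.05. *Lyz2*, the lysozyme of macrophages, was at 97.4 ± 60.0 FPKM with saline and 2244 ± 1252 FPKM with bleomycin in *Acta2*-tdT, and at 46.1 ± 21.5 and 1440 ± 1064 FPKM in *Pdgfra*-tdT. *Acta2*-tdT bleomycin mouse 7 was the highest for both the macrophage sum (13060 FPKM) and *Plin2* (79.0 FPKM), although by scaled FPKM *Plin2* was highest in mouse 6 (11.5) and the macrophage sum in mouse 7 (1472), and *Pdgfra*-tdT bleomycin mouse 8 was the lowest of its group for both (460 FPKM and 1.63 FPKM). *Pdgfra*-tdT saline mouse 3 went the other way, with the highest *Plin2* (2.97 FPKM) and the lowest macrophage sum (52.9 FPKM) of its group. The part of macrophage RNA in *Plin2* was not tested.

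**Figure D2:**
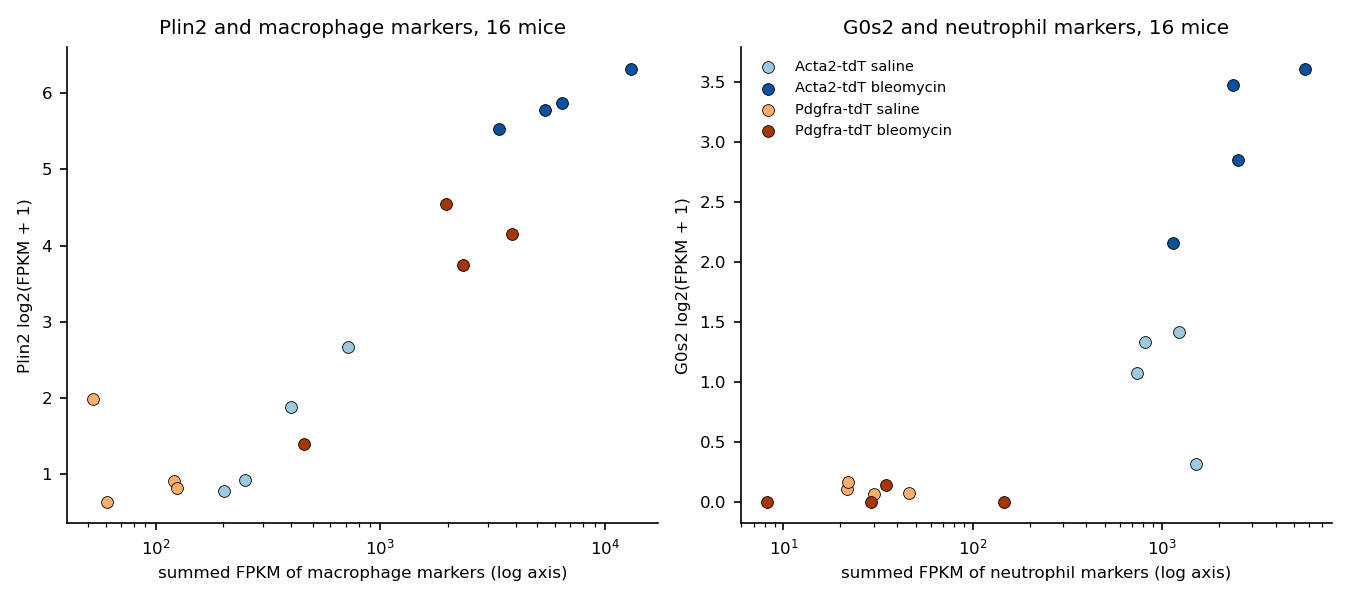
Left, *Plin2* log2(FPKM + 1) against the summed FPKM of 16 macrophage markers (log axis), and right, *G0s2* log2(FPKM + 1) against the summed FPKM of 8 neutrophil markers (log axis). Each point is 1 of 16 mice, coloured by group. The bleomycin mice of both lines are high on both axes at left apart from *Pdgfra*-tdT mouse 8 at 1.63 FPKM, and at right all 8 *Pdgfra*-tdT mice sit near 0 with neutrophil sums of at most 147 FPKM.

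*G0s2* (ENSMUSG00000009633, chromosome 1, 193272161 to 193273217, minus strand) encodes an inhibitor of adipose triglyceride lipase, the product of *Pnpla2*. It was at 1.52, 1.11, 0.246 and 1.67 FPKM in the *Acta2*-tdT saline mice and at 11.2, 6.22, 3.48 and 10.1 FPKM with bleomycin. The groups did not overlap and the rise was 1.99 ± 0.38 on the log2 scale (adjusted p = 0.00065). Scaled, the levels were 0.249 to 2.02 with saline and 0.392 to 1.74 with bleomycin, and the difference was -0.08 ± 0.30 (adjusted p = 0.825).

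*G0s2* was near or at 0 in the *Pdgfra*-tdT line, with 0.0544, 0.0483, 0.0786 and 0.120 FPKM in the saline mice and 0, 0, 0.0985 and 0 FPKM in the bleomycin mice. Those levels were under most of the receptor genes, of which 51.3% to 83.4% were at or above it with saline. With saline, all *Acta2*-tdT mice were above the *Pdgfra*-tdT mice, with a log2 difference of 0.93 and an exact permutation p of 0.0286, but the gene was below the filter there. With bleomycin, *G0s2* entered the test through the *Acta2*-tdT side alone, and the difference was 2.99 ± 0.36 for FPKM (adjusted p = 8.73e-05) and 1.01 ± 0.20 for scaled FPKM (adjusted p = 0.00524, or 0.0553 when no filter was applied).

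Neutrophils also express *G0s2*, and their markers separated the lines in the same direction. The 8 neutrophil markers summed to 741 to 1514 FPKM in the *Acta2*-tdT saline mice and 1151 to 5732 FPKM with bleomycin, against 21.8 to 45.9 FPKM and 8.23 to 147 FPKM in the *Pdgfra*-tdT mice. Scaled, the sums were 1023 to 1532 and 130 to 885 in *Acta2*-tdT, against 17.9 to 75.3 and 14.2 to 52.4 in *Pdgfra*-tdT. Between the treatments in *Acta2*-tdT the scaled neutrophil sums were thus lower with bleomycin, while the scaled difference of *G0s2* was -0.08 ± 0.30. *S100a8*, a calcium-binding protein of neutrophils, was at 647 ± 200 FPKM in the *Acta2*-tdT saline mice and at 15.7 ± 7.8 FPKM in the *Pdgfra*-tdT saline mice. Among the *Acta2*-tdT bleomycin mice, mouse 5 was highest and mouse 7 lowest for both *G0s2* (11.2 and 3.48 FPKM) and the neutrophil sum (5732 and 1151 FPKM). Among the saline mice, mouse 3 had the lowest *G0s2* (0.246 FPKM) and the highest neutrophil sum (1514 FPKM). The part of neutrophil RNA in *G0s2* was not tested.

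*Pparg* (ENSMUSG00000000440, chromosome 6, 115360951 to 115490399, plus strand), the nuclear receptor of the lipid programme, was low in all groups. The *Acta2*-tdT mice had 0.242, 0.0799, 0.0339 and 0.774 FPKM with saline and 0.662, 0.0359, 2 and 0.896 FPKM with bleomycin. The *Pdgfra*-tdT mice had 1.70, 0.688, 0 and 1.97 FPKM with saline and 0.0359, 1.39, 0.418 and 1.70 FPKM with bleomycin. Within a group the highest mouse had from 1.70 to 2 FPKM outside the *Acta2*-tdT saline mice, and all pairs of groups overlapped. Of the comparisons between groups, the gene entered the test in the *Pdgfra*-tdT line alone, where bleomycin against saline gave -0.13 ± 0.44 for FPKM (adjusted p = 0.914) and -0.27 ± 0.54 for scaled FPKM (adjusted p = 0.831). In the *Acta2*-tdT line the exact permutation p was 0.257.

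**Figure D3:**
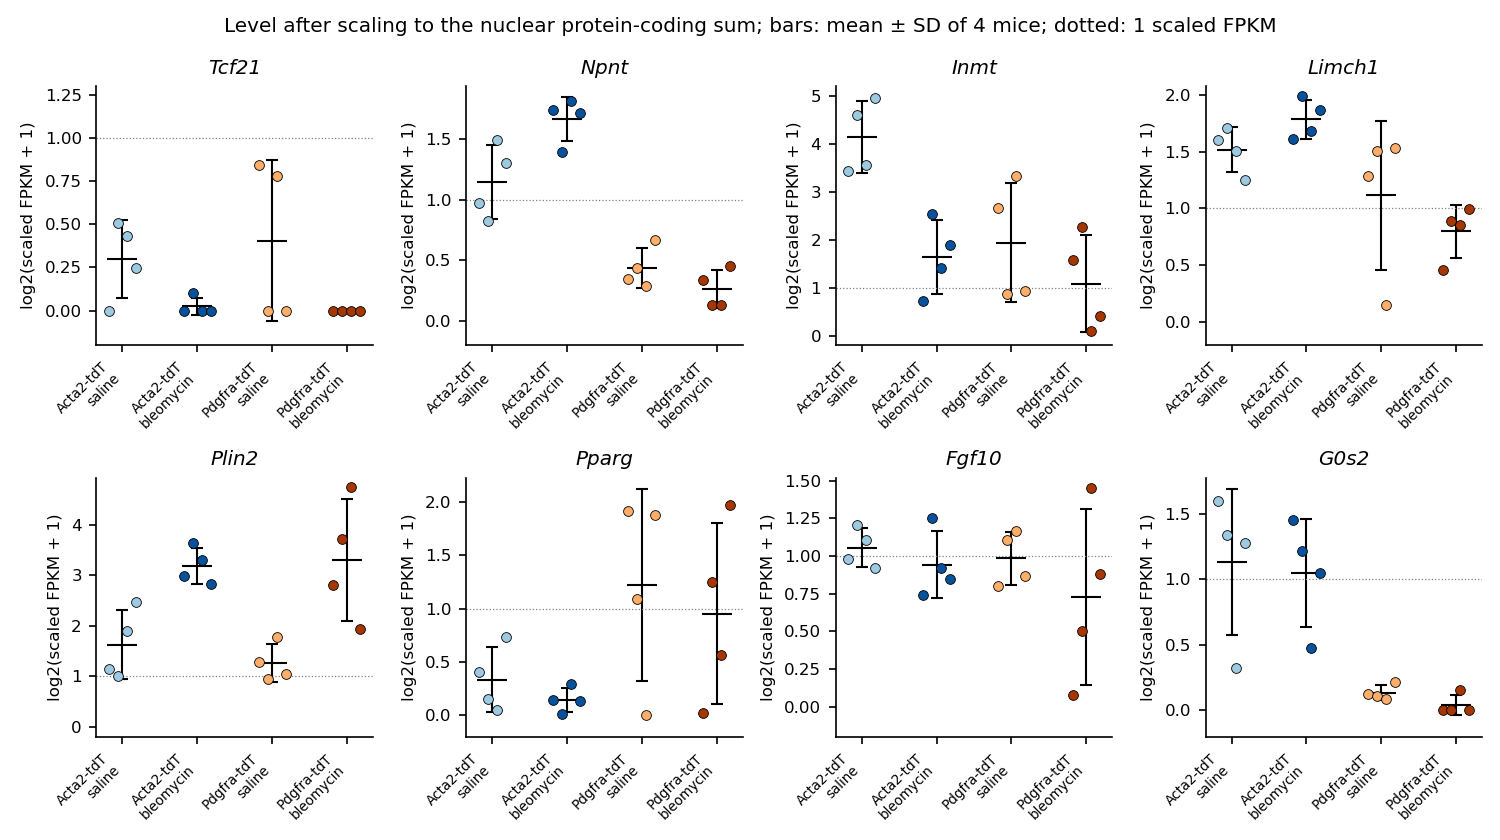
The same 8 genes after scaling to the nuclear protein-coding sum, as log2(scaled FPKM + 1) on the y axis, by group on the x axis. Points are mice, bars are the mean ± SD of 4 mice and the dotted line is 1 scaled FPKM. *Plin2* stays higher with bleomycin in *Acta2*-tdT cells (6.10 to 11.5 against 0.997 to 4.59), *Inmt* lies lower (0.654 to 4.82 against 9.81 to 30.2), and *Fgf10* and *G0s2* overlap between the treatments.

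Promoter sequence is shown for 3 genes whose share moved differently in *Acta2*-tdT cells: *Plin2*, which rose when scaled, *G0s2*, another lipid droplet gene, which did not pass the test, and *Inmt*, which fell. The sequences are from RefSeq (GRCm38.p6), read 5′ to 3′ on the gene's strand, and run from 250 bases before the annotated start up to the gene's span in the files and in GENCODE. Capitals mark matches, on either strand, to the half-site AGGTCA of nuclear receptors such as PPARG, to the E-box CANNTG of basic helix-loop-helix factors such as TCF21, and to the TATA box TATAAA.
Plin2, chr4:86670061-86670309, minus strand: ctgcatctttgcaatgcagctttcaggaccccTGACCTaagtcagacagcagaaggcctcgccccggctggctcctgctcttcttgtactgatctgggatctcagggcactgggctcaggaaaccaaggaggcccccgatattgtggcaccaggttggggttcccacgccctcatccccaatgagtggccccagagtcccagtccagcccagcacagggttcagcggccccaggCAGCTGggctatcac
G0s2, chr1:193273218-193273438, minus strand: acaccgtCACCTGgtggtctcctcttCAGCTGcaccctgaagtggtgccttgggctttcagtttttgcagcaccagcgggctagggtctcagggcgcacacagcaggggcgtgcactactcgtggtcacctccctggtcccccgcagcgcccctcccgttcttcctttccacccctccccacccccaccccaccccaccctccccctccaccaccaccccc
Inmt, chr6:55175044-55175240, minus strand: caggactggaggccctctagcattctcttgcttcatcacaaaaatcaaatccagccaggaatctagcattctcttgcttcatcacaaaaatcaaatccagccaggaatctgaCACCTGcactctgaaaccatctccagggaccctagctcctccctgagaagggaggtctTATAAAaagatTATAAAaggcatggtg

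*Plin2* holds the half-site on the opposite strand, starting 218 bases before the start, and an E-box 16 bases before it. *G0s2* holds 2 E-boxes and *Inmt* 1 E-box and a pair of TATA boxes in the stretch shown. All 8 genes were matched in the promoter table, with 13 windows of 300 bases among 32851. The half-site occurred in 6 of the 13 windows (of *Plin2*, *Pparg*, *Npnt* and *Limch1*) and in 16.3% of all windows, the E-box in 10 of 13 and in 72.3%, and the TATA box in 3 of 13 (of *Inmt*, *Limch1* and *Pparg*) and in 13.6%. *Limch1* and *Pparg* have 3 windows each and *Npnt* 2, at separate starts. A pair of half-sites with 1 base between them, the response element of PPARG, occurred in none of the 13 windows and in 0.0396% of all windows. A match describes letters and not binding.

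Between the lines with saline, 2 of the 8 genes entered the test, *Inmt* and *Limch1*, and limma called neither, where 2.91% of all genes tested by FPKM and 3.42% by scaled FPKM were called; *Inmt* alone had an unadjusted p under 0.05. Between the lines with bleomycin 6 genes entered and all 6 were higher in *Acta2*-tdT by FPKM, but so were 71% of all genes. By scaled FPKM 3 were higher, *Npnt*, *Limch1* and *G0s2*, beside 15.8% of all genes. For bleomycin against saline in *Acta2*-tdT 5 of 6 rose by FPKM, beside 70.4% of all genes. By scaled FPKM *Plin2* and *Npnt* rose, beside 23.9% of all genes, and *Inmt* fell, beside 32.6%. In the *Pdgfra*-tdT line 3 genes entered (*Plin2*, *Inmt* and *Pparg*) and limma called none, beside 0.124% of all genes by FPKM and 0.137% by scaled FPKM; *Plin2* alone had an unadjusted p under 0.05. *Npnt* and *G0s2* in the line comparison with bleomycin entered through the group in which they were higher and had to differ. *Limch1* and *Fgf10* reached 1 FPKM there in 4 *Acta2*-tdT mice and 1 *Pdgfra*-tdT mouse, so the *Acta2*-tdT side met the filter. For bleomycin in *Acta2*-tdT the bleomycin mice met it for *Plin2*, *Npnt*, *Fgf10* (2 saline mice at 1 FPKM) and *G0s2* (3). These counts are therefore descriptions.

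Whether the bleomycin difference was unequal between the lines was tested as the interaction over 16 mice. By FPKM 4 of 7 genes passed, beside 39.8% of all genes in either direction, and all 4 had the larger difference in *Acta2*-tdT cells, as 36.6% of all genes did: *Npnt* by 2.97 ± 0.46 (adjusted p = 0.000317), *Limch1* by 2.81 ± 0.40 (adjusted p = 0.000202), *Fgf10* by 2.1 ± 0.39 (adjusted p = 0.001) and *G0s2* by 2.06 ± 0.43 (adjusted p = 0.00212). The difference for *Plin2*, 1.94 ± 0.90, did not pass (adjusted p = 0.0973). The median over all genes was 1.05. *Npnt* and *G0s2* reached 1 FPKM in 0 of 8 *Pdgfra*-tdT mice and entered this test through the *Acta2*-tdT mice alone, so their difference is a description. In the *Pdgfra*-tdT line *Limch1* reached it in 2 saline mice and 1 bleomycin mouse, and *Fgf10* in 1 of each. The *Acta2*-tdT mice carried these genes past the filter as well. By scaled FPKM none of the 7 passed, beside 2.22% of all genes; *Npnt* (0.69 ± 0.27) had an unadjusted p of 0.0213 and an adjusted p of 0.181.

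**Figure D4:**
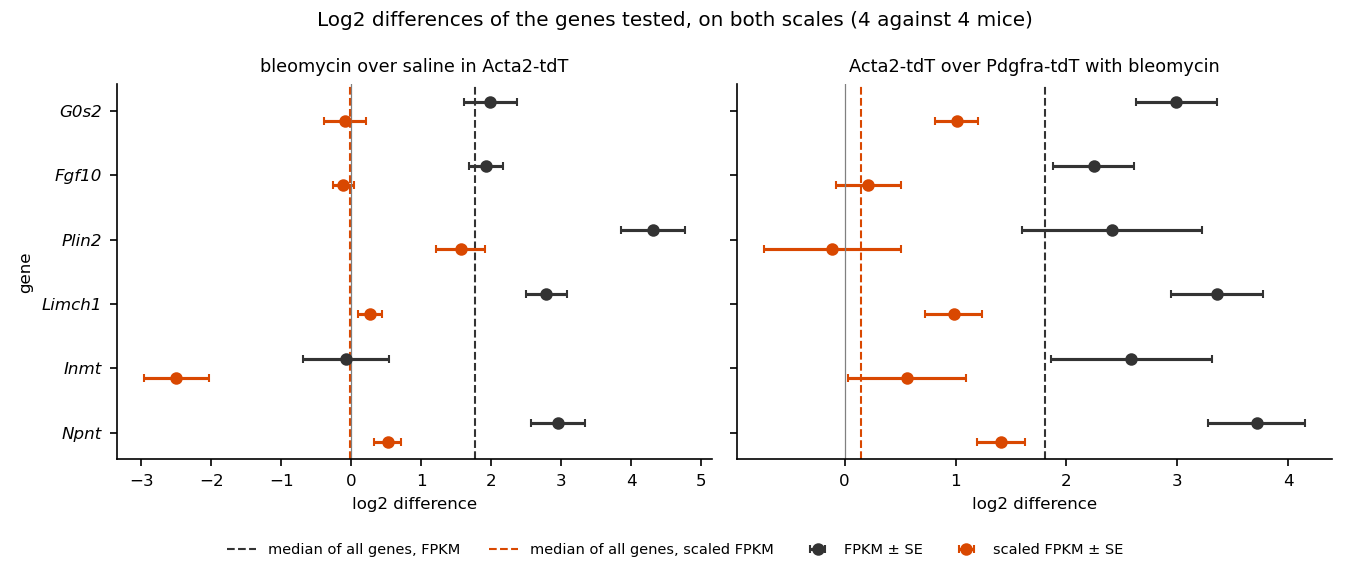
Log2 differences of the 6 genes tested, with SE, for bleomycin over saline in *Acta2*-tdT (left) and for *Acta2*-tdT over *Pdgfra*-tdT with bleomycin (right), on FPKM (black) and scaled FPKM (orange). Dashed lines are the medians of all genes tested, 1.76 and -0.02 at left and 1.81 and 0.14 at right. At left *Plin2* lies above and *Inmt* below the median on both scales.

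The lipid droplet genes gave the setting for *Plin2*. Of 26 listed genes of droplet proteins, lipases, fatty acid uptake and known *Pparg* targets, 18 entered the *Acta2*-tdT bleomycin comparison. All 18 rose by FPKM (median 2.21, against 1.76 over all genes), and by scaled FPKM 6 rose and 1 fell (median 0.18, against -0.02). Over all genes 70.4% rose by FPKM, and 23.9% rose and 32.6% fell when scaled. *Lpl*, lipoprotein lipase, was at 1.81 ± 0.72 FPKM with saline and 127 ± 84 FPKM with bleomycin, a scaled rise of 2.49 ± 0.29 (adjusted p = 7.1e-05). *Fabp5*, a fatty acid binding protein, rose by 1.70 ± 0.28 when scaled (adjusted p = 0.000628), and *Mgll*, monoglyceride lipase, by 1.60 ± 0.36 (adjusted p = 0.0042). *Cebpb*, a transcription factor of fat cell formation and inflammation, rose by 1.47 ± 0.22 when scaled (adjusted p = 0.000349), and with saline it was higher in *Acta2*-tdT by 1.56 ± 0.25 for FPKM (adjusted p = 0.0159). *Lpl* and *Fabp5* are also abundant in lung macrophages. In the *Pdgfra*-tdT bleomycin mice *Lpl* was at 28.3 ± 24.4 FPKM and *Fabp5* at 32.9 ± 20.7 FPKM, while limma called none of the 8 listed genes that entered that comparison; of these, *Lpl* and *Fabp5* had an unadjusted p under 0.05. Between the lines with bleomycin 13 of 18 listed genes were higher in *Acta2*-tdT by FPKM (median 1.89, against 1.81 over all genes), and when scaled 4 were higher and 2 lower (median 0.10, against 0.14), beside 71% higher by FPKM and 15.8% higher and 17.6% lower when scaled over all genes. *Mgll* was higher in *Acta2*-tdT by 2.1 ± 0.43 when scaled (adjusted p = 0.00643), as was *Angptl4*, a secreted inhibitor of lipoprotein lipase, by 2.86 ± 0.45 (adjusted p = 0.00263), and *Dgat1*, an enzyme of triglyceride synthesis, by 1.21 ± 0.29 (adjusted p = 0.0118), while the scaled difference of *Fabp5* was -1.71 ± 0.50 (adjusted p = 0.0261) and its FPKM difference 0.81 ± 0.82 (adjusted p = 0.363). *Adipoq*, the fat cell hormone adiponectin, was listed at 0 in all *Acta2*-tdT saline mice and reached at most 1.57 FPKM in any other mouse.

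Other alveolar fibroblast genes went both ways when scaled, at shares near those of all genes. Of 20 listed, 19 were found and 13 entered the *Acta2*-tdT bleomycin comparison: 11 rose by FPKM, and by scaled FPKM 4 rose and 5 fell (median -0.33, against -0.02 over all genes), where 70.4% of all genes rose by FPKM, and 23.9% rose and 32.6% fell when scaled. Markers of other fibroblasts moved in the same comparison: 6 of 6 tested adventitial fibroblast markers rose by FPKM and 3 when scaled (median 0.82), and 6 of 6 general mesenchymal markers rose on both scales (scaled median 2.93). Their part in the values of the list was not tested. *Mfap4*, a microfibril protein, rose by 2.08 ± 0.40 when scaled (adjusted p = 0.00161), and *Spon1*, a spondin of the matrix, by 1.19 ± 0.17 (adjusted p = 0.000268), as did *Meox2*, a homeobox factor, by 0.76 ± 0.16 (adjusted p = 0.00315). *Rarres2*, the precursor of chemerin, was at 122 ± 40 FPKM with saline and 268 ± 74 FPKM with bleomycin, a rise of 1.15 ± 0.40 on the log2 scale (adjusted p = 0.0205), while its scaled level fell by 1.81 on the log2 scale (SE 0.30, adjusted p = 0.000684). In *Pdgfra*-tdT mice *Rarres2* was at 4.99 ± 3.64 FPKM with saline. With saline it was higher in *Acta2*-tdT by 4.46 ± 0.49 (adjusted p = 0.00349). Of the 4 listed genes that entered this comparison, it was the only 1 called higher by FPKM, and 3 were when scaled, beside 2.72% and 3.20% of all genes. With bleomycin 12 of the 13 that entered were higher in *Acta2*-tdT by FPKM and 7 when scaled, beside 71% and 15.8% of all genes, and *Scn7a*, a sodium channel, was lower on both scales.

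Of 16 listed genes of fibroblast growth factor and hedgehog signalling, 9 entered the *Acta2*-tdT bleomycin comparison: 7 rose by FPKM, and by scaled FPKM 3 rose and 1 fell (median -0.03, against -0.02 over all genes), beside 70.4%, 23.9% and 32.6% of all genes. *Dusp6*, a phosphatase induced by the pathway, was at 0.607 ± 0.480 FPKM with saline and 41.4 ± 11.0 FPKM with bleomycin, a scaled rise of 2.07 ± 0.21 (adjusted p = 3.18e-05). The receptor *Fgfr1* rose by 1.10 ± 0.15 when scaled (adjusted p = 0.000169), and *Etv4*, a transcription factor downstream, by 0.51 ± 0.09 (adjusted p = 0.00071). *Hhip*, an inhibitor of hedgehog ligands, fell by 1.61 when scaled (SE 0.23, adjusted p = 0.000239), while its FPKM difference was -0.39 ± 0.26 (adjusted p = 0.182). The ligand *Shh* was at or near 0 in all 16 mice, with a highest value of 0.0295 FPKM. For the ligand *Fgf7* there was a rise of 2.1 ± 0.29 by FPKM (adjusted p = 6.83e-05) and a scaled difference of -0.15 ± 0.13 (adjusted p = 0.382).

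The genes most alike to each marker were sought over 16 mice by Pearson's r of log2(scaled FPKM + 1), among 7884 genes with 1 FPKM in at least 8 mice. The mice share group and library composition, so the values are descriptions. *Plin2* was most like *Cd302* (r = 0.94) and *Pon2* (r = 0.93), *Inmt* like *Gstk1* (r = 0.87) and *Cdkn1c* (r = 0.85), *Limch1* like *Hddc2* (r = 0.86) and *Eif2b3* (r = 0.83), and *Fgf10* like Gm29408 (r = 0.80) and *Rnf146* (r = 0.79). On these scaled values the 4 markers were little alike to each other, with r from -0.33 (*Inmt* and *Plin2*) to 0.29 (*Limch1* and *Fgf10*). That depends on the scale: by FPKM, *Limch1*, *Plin2* and *Fgf10* were all highest in the 4 *Acta2*-tdT bleomycin mice. The other 4 genes did not reach that filter.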

How the data were processed

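tdTomato-positive cells of the left lung lobe were sorted into lysis buffer, amplified by SmartSeq2 and sequenced. The authors deposited FPKM per gene; per the labels, reads were processed with TopHat2 2.1.1, Bowtie2 2.2.9 and Cufflinks 2.1.1 (GRCm38). Entries of a gene were summed, and 15 genes with a Cufflinks status other than OK in a mouse were left out. Scaled FPKM sets the sum over 21950 nuclear protein-coding genes to its median over the 16 mice. Groups were compared with limma 3.58.1 (R 4.3.3; lmFit, eBayes with trend) on log2(value + 1), so fold changes of low genes are understated; a gene entered with 1 FPKM in at least 4 mice. Benjamini-Hochberg adjusted p-values, over all genes tested, had a threshold of 0.05, and each gene of interest also had an exact two-sided permutation test (70 labellings; smallest p 0.0286). The code was tested on simulated data. The 8 genes and all lists were chosen with earlier results of these data known. The genes named from the fibroblast, lipid and signalling lists are the 3 with the largest mean FPKM, per comparison up to 3 called in the same direction on both scales with the largest scaled difference, and those at 0 throughout a group; *Fabp5* is also given in the line comparison, chosen after its values were seen. Of the marker lists of other cells, which the same rule covered, 1 gene each is named for macrophages and neutrophils. Depth is unknown, so no counting interval is given. Alternatives changed the pseudocount, filter, weights, scaling, samples and the replicate block.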

Additional observations from a re-analysis of the deposited data

Results flagged for a closer look

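Among 32 groups of 4 FPKM values, 3 held a mouse set apart from the other mice of its group by Dixon's criterion, which chance alone gives in about 1 of 20 groups of values that vary continuously. *Plin2* was at 2.97 FPKM in *Pdgfra*-tdT saline mouse 3, against 0.560 to 0.879 FPKM in the other mice of that group. *Tcf21* was at 0.336 FPKM in *Acta2*-tdT bleomycin mouse 6 and *G0s2* at 0.0985 FPKM in *Pdgfra*-tdT bleomycin mouse 7, where the other mice of each group were listed at 0, so that any value above 0 would have stood apart.

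The bleomycin difference was larger in *Acta2*-tdT than in *Pdgfra*-tdT cells by FPKM for *Npnt* (2.97 on the log2 scale), *Limch1* (2.81), *Fgf10* (2.1) and *G0s2* (2.06), each past limma's threshold in the interaction test. *Npnt* and *G0s2* reached 1 FPKM in 0 of 8 *Pdgfra*-tdT mice and entered the test through the *Acta2*-tdT mice alone. *Limch1* and *Fgf10* were also carried past the filter by the *Acta2*-tdT mice. By scaled FPKM none of the 4 passed it.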

How the results depend on the processing

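Excluding fits that leave out 1 mouse, 305 values kept their direction and their side of the threshold under an alternative, 14 lost the call, 9 gained it and 8 changed direction. None of the values that changed direction was called as reported. With sample quality weights the genes of interest called went from 0 to 1 between the lines with saline on both scales (*Inmt*), from 0 to 1 for bleomycin in *Pdgfra*-tdT on both scales (*Plin2*, 3.07 by FPKM and 2.88 scaled), and from 0 to 2 in the scaled interaction (*Npnt* and *Limch1*), and from 4 to 5 in the FPKM interaction (*Pparg*, 1.19, adjusted p = 0.0421). Under quantile normalization the line comparison with bleomycin went from 6 to 3 by FPKM and the interaction from 4 to 1. For bleomycin in *Acta2*-tdT it left *Fgf10* at 0.40 (adjusted p = 0.116) and *G0s2* at 0.48 (adjusted p = 0.357), not called, and *Inmt* at -2.31 (adjusted p = 0.00286), called lower. With a mean of at least 5 FPKM required, which tests fewer genes, bleomycin in *Acta2*-tdT went from 5 to 3 and the interaction from 4 to 1. Without a filter the scaled line comparison with bleomycin went from 3 to 1, with *Limch1* and *G0s2* no longer called (adjusted p = 0.0553 each), and the scaled difference of *Npnt* in *Acta2*-tdT, 0.52 as reported, was not called (adjusted p = 0.0594), nor was it with a pseudocount of 0.1 (0.81, adjusted p = 0.0523), a mean of at least 5 FPKM (adjusted p = 0.0591) or scaling to 1000000 (0.84, adjusted p = 0.0529). Leaving out *Pdgfra*-tdT saline 3 and bleomycin 5 together, chosen after seeing the data, took the scaled interaction from 0 to 1 (*Limch1*, 0.79). Beyond what was said of the filter, the cause was not tested.

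Leaving out 1 mouse gave counts of 0 to 1 between the lines with saline on both scales and for bleomycin in *Pdgfra*-tdT by FPKM, 5 to 6 by FPKM and 2 to 3 scaled between the lines with bleomycin, and 2 to 3 scaled for bleomycin in *Acta2*-tdT. Directions turned as follows. *Fgf10* turned to -0.032 with weights in the scaled line comparison with bleomycin and to -0.080 with weights and -0.13 without the 2 mice in the scaled interaction. *Inmt* turned to 0.32 with weights for bleomycin in *Acta2*-tdT and to -1.19 under quantile normalization in the interaction, both by FPKM. In the scaled interaction *Pparg* turned to -0.24 with a pseudocount of 0.1 and -0.42 when scaled to 1000000, and *G0s2* to -0.16 with weights. With 1 mouse left out, values that turned had these ranges. In the scaled line comparison with bleomycin *Plin2* ran from -0.57 to 0.37 and *Fgf10* from -0.0021 to 0.46. For bleomycin in *Acta2*-tdT *Inmt* ran from -0.39 to 0.43 by FPKM and *G0s2* from -0.35 to 0.11 scaled. For bleomycin in *Pdgfra*-tdT *Inmt* ran from -0.88 to 0.20 and *Pparg* from -0.44 to 0.12 by FPKM, and *Pparg* from -0.68 to 0.041 scaled. In the interaction *Inmt* ran from -0.28 to 0.84 by FPKM, and scaled *Plin2* from -0.94 to 0.0045, *Pparg* from -0.23 to 0.49, *Fgf10* from -0.072 to 0.39 and *G0s2* from -0.26 to 0.20.

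Whether replicate numbers pair the mice of the lines could not be decided. Correlations of same-numbered deviations ran from -0.25 to 0.16, and 2 of 8 mice were closest to their own number (saline mice 1 and 3). So few correlations cannot exclude a shared batch. With a replicate block the lines with saline had 36 genes called by FPKM against 237 without it and 105 against 279 scaled, and the genes of interest called were unchanged at 0, 0, 6 and 3. Over all alternatives but the left-out mice, genes called ran from 36 to 2715 by FPKM and 51 to 3707 scaled between the lines with saline, from 4185 to 11028 (9553 as reported) and 1291 to 5711 (4012) between the lines with bleomycin, from 5069 to 15415 (10848) and 3127 to 16928 (7083) for bleomycin in *Acta2*-tdT, from 2 to 548 (9) and 2 to 3116 (10) in *Pdgfra*-tdT, and from 1595 to 10668 (6605) and 158 to 2593 (369) in the interaction. Without *Pdgfra*-tdT saline mouse 3 the lines with saline had 2397 and 3140 genes called.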
